A study of Rattus norvegicus with 10 samples.

Results

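The genes described here are 10 that mark endothelial cells, the cells lining blood vessels and the heart chambers: Pecam1, Cdh5, Kdr, Flt1, Tek, Tie1, Eng, Nos3, Vwf and Emcn. They were found by their symbols among the 18025 genes with deposited values, and all 10 were present. Messenger RNA of wild-type Sprague-Dawley rat hearts was measured at embryonic day 19.5 in 5 libraries of a control (CON) group and 5 of a hyperglycemia (HG) group. Dams of both groups were 3 months old and mated with normoglycemic males. The CON dams received citric acid buffer, and the HG dams received streptozotocin, a toxin of the insulin-producing cells, by intraperitoneal injection on 3 consecutive days, with a non-fasting glucose above 16 mM when checked on day 7. The study's texts differ on whether the injections came before or after mating. Nothing states from which litters the fetuses came, so p-values measure the spread between these libraries. Values are FPKM, read numbers corrected for how long a gene is and how deeply its library was sequenced. The whole-read numbers behind them were recovered, with 17639895 to 18240006 reads on genes in a CON library and 16672876 to 19109844 in an HG library.

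Endothelial cells are joined to each other by VE-cadherin (Cdh5) and PECAM-1 (Pecam1), and carry the mucin-like sialoprotein endomucin (Emcn) on their surface. They respond to vascular endothelial growth factor (VEGF) through the receptors KDR and FLT1 and to angiopoietins through TEK, with TIE1 as a partner of TEK. Endoglin (Eng) is a co-receptor for BMP9 and BMP10, endothelial nitric oxide synthase (Nos3) makes the vasodilator nitric oxide, and von Willebrand factor (Vwf) is stored in Weibel-Palade bodies and released for platelet adhesion. In the gene annotation deposited with the values, the Gene Ontology term angiogenesis held 8 of the 10 genes, all but Cdh5 and Vwf, and 1.25% of the 15993 annotated genes. The term transmembrane receptor protein tyrosine kinase activity held Flt1, Kdr, Tek and Tie1.

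Emcn, Tie1 and Nos3 were higher in HG hearts, by 22.4%, 14.7% and 19.4% of their CON means. The other 7 genes did not pass the test, which was limma on log2(FPKM + 0.1) with Benjamini-Hochberg adjustment over 14542 genes and a threshold of 0.05. Of the 10 genes, 3 were thus called higher and 0 lower, while 28.4% of all genes tested were called higher and 11.8% lower. At an unadjusted p under 0.05 the counts were also 3 and 0. The median log2 fold change was 0.09 over the 10 genes and 0.09 over all genes tested, so that the set as a whole stood where the median gene stood. The largest log2 fold change was 0.29, and none of the 10 exceeded a 2-fold difference. FPKM depends on how each library is scaled: of the genes called, 70.7% were higher in HG, against 47.1% when libraries were divided by median-of-ratios factors (the median over genes of a library's ratio to the geometric mean) and 53.0% after quantile normalization. With median-of-ratios factors 1 of the 10 genes was called higher, Emcn, and 1 lower, Pecam1. Over all 14542 genes tested, that scaling called 2271 higher and 2551 lower.

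Promoter sequences from RefSeq (build GRCr8) were found for 6 of the 10 genes, Emcn, Tie1, Nos3, Eng, Flt1 and Kdr. Those of the 3 genes called higher are printed because the report turns on them. Each shows the 250 bases before the annotated start, read on the gene's strand, with capitals for AGGAA, a core recognised by ETS family factors such as ERG and FLI1, or its reverse complement TTCCT. Emcn lies on the plus strand (chr2:228564289-228564538), Tie1 on the minus strand (chr5:137304982-137305231) and Nos3 on the minus strand (chr4:11706582-11706831).
Emcn: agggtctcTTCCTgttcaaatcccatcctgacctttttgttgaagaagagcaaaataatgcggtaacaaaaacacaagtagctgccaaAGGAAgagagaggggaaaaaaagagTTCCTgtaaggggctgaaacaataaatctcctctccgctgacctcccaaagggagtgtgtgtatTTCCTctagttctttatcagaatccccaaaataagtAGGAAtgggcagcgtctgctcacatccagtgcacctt
Tie1: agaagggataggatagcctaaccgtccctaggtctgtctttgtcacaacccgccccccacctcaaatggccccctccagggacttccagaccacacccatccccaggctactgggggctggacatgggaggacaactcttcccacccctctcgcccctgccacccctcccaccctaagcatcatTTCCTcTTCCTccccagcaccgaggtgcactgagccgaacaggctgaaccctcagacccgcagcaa
Nos3: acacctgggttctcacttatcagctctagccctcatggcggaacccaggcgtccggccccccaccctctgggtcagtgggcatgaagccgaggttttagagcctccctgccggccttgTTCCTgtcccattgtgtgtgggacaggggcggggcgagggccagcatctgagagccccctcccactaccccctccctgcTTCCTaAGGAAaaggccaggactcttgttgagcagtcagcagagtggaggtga
These windows held 5 matches in Emcn, 2 in Tie1 and 3 in Nos3, and none of the matches overlapped another. Those not printed held 3 in Eng (chr3:36332029-36332278, plus strand), 2 in Flt1 (chr12:12333180-12333429, plus strand) and 0 in Kdr (chr14:32571813-32572062, plus strand). Thus 5 of the 6 held at least 1 match, beside 61.0% of 33469 promoters of the same length, and 3 of the 6 held at least 3, beside 9.14%. The exact letters AGATAA, a spelling of the site of GATA family factors, were in 0 of the 6 on either strand, beside 10.3% of all promoters. Other spellings of the GATA site were not counted, so its absence is not shown. The TATA box core, spelled TATAAA, was in 1 of the 6, Flt1, beside 12.9% of all promoters. A match is a description of letters and neither a bound site nor a cause of a difference.

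All 10 genes were well measured, with between 812 and 6206 reads per library. By mean FPKM in CON the order was Eng (88.0), Cdh5 (71.4), Pecam1 (64.9), Tie1 (40.0), Emcn (34.4), Kdr (28.1), Nos3 (23.5), Tek (19.8), Vwf (8.44) and Flt1 (7.29). Among neighbours in this order, the libraries of Cdh5 and Pecam1 overlapped, as did those of Vwf and Flt1, and the other neighbours did not. In HG the order was the same except that Flt1 stood above Vwf, and the libraries of Tie1 and Emcn and of Kdr and Nos3 then also overlapped. The plot of the 10 genes by library shows each value as a percentage of the CON mean.

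**Figure D1:**
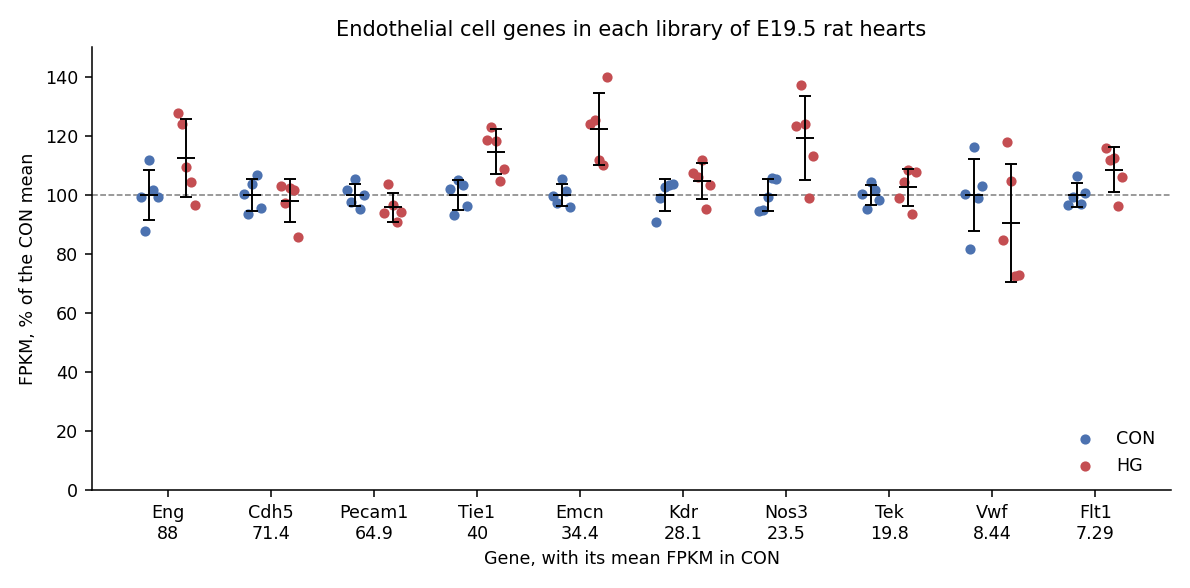
Each point is the FPKM of a gene in 1 library, as a percentage of the gene's CON mean (y axis), for 5 CON (blue) and 5 HG (red) libraries in replicate order, with the group mean ± SD as a black bar; the x axis gives each gene and its mean FPKM in CON. All 5 HG libraries of Emcn lie above its CON libraries and 4 do so for Tie1 and Nos3, so that the groups overlap in every gene but Emcn.

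Among the 10 genes, Emcn had the largest log2 fold change. Emcn (NCBI Gene 295490) was at 34.3, 33.5, 36.3, 34.9 and 32.9 FPKM in CON replicates 1 to 5 and at 42.7, 43.1, 38.5, 37.9 and 48.1 FPKM in HG replicates 1 to 5. Every HG library lay above every CON library, and HG replicate 5 was the highest. Such a separation was found in 19.3% of all genes tested in the higher and in 8.12% in the lower direction. The means were 34.4 ± 1.30 and 42.1 ± 4.14 FPKM (SD, n = 5 each), a log2 fold change of 0.29 (standard error 0.0607, limma adjusted p = 0.00278). Emcn was called under each of the 21 alternative settings, with adjusted p from 0.00158 to 0.0209.

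The junction genes were nearly level. Cdh5 (307618) was at 71.7, 66.8, 73.9, 76.1 and 68.3 FPKM in the CON libraries and at 73.6, 69.4, 73.1, 72.6 and 61.2 FPKM in the HG libraries. Only HG replicate 5, which was the highest for Emcn, lay below all CON libraries. The log2 fold change of Cdh5 was -0.03 (95% interval -0.15 to 0.09, limma adjusted p = 0.700). Pecam1 (29583) was at 66.0, 63.4, 68.3, 61.8 and 65.0 FPKM in CON and at 60.9, 67.3, 62.8, 59.0 and 61.1 FPKM in HG. Here 3 HG libraries lay below the CON libraries and the other HG libraries within their range. The log2 fold change of Pecam1 was -0.06 (95% interval -0.15 to 0.03, limma adjusted p = 0.263), and -0.15 with median-of-ratios factors (adjusted p = 0.0171).

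In whole hearts, fewer endothelial cells and less RNA per cell cannot be told apart. A ratio between members of the set within a library does not depend on the scaling of that library, so each gene was also set against Cdh5. As a reference Cdh5 has a limit, since its pairs with the other genes had a median Pearson r of only 0.13 within groups. Relative to Cdh5, 3 of the other 9 genes were called higher and 0 lower, where 20.3% of 14541 genes were called higher and 7.3% lower. They were Emcn (log2 difference 0.32, limma adjusted p = 0.0225), Tie1 (0.23, 0.0208) and Nos3 (0.28, 0.0321). Each of these calls was lost in at least 1 fit without 1 library: Emcn reached an adjusted p of 0.0517 without CON replicate 4, Tie1 0.0593 without HG replicate 2, and Nos3 lost its call without CON replicate 1, 3 or 4 or HG replicate 2, 3 or 5, at adjusted p of 0.0567 to 0.0881. Without HG replicate 5, the lowest library for Cdh5 and the highest for Emcn, the difference of Emcn was 0.22 (limma adjusted p = 0.0190). Eng was close to the threshold relative to Cdh5 (0.19, adjusted p = 0.0537) and passed it without HG replicate 4 (0.0309). The intervals of Pecam1 (-0.19 to 0.12), Kdr (-0.07 to 0.26), Flt1 (-0.04 to 0.33), Tek (-0.11 to 0.24) and Vwf (-0.40 to 0.14) relative to Cdh5 all held 0.

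**Figure D2:**
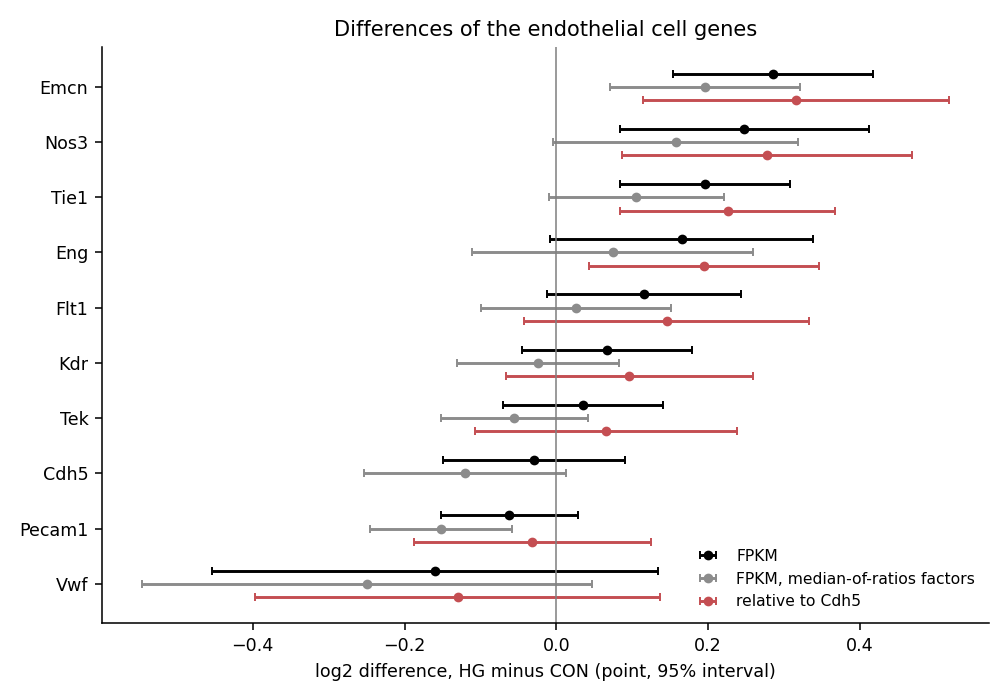
The x axis is the log2 difference HG minus CON with its 95% interval from limma (n = 5 libraries each) for each gene on the y axis, on FPKM (black), on FPKM divided by median-of-ratios factors (grey) and relative to Cdh5 (red; Cdh5 itself has no such value). The intervals of Emcn lie above 0 in all of them, those of Nos3 and Tie1 reach below 0 with median-of-ratios factors, that of Eng lies above 0 relative to Cdh5, and that of Pecam1 lies below 0 with median-of-ratios factors.

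Neither VEGF receptor passed the test. Kdr (25589), the main signalling receptor of VEGF-A, was at 25.5, 27.8, 28.8, 29.0 and 29.1 FPKM in CON and at 30.2, 29.8, 31.4, 26.7 and 29.0 FPKM in HG. The 3 highest HG libraries, replicates 1 to 3, exceeded all CON libraries, while replicates 4 and 5 lay within their range. Its log2 fold change was 0.07 (95% interval -0.05 to 0.18, limma adjusted p = 0.330). Flt1 (54251), which binds VEGF-A tightly and signals weakly, was at 7.05, 7.24, 7.76, 7.06 and 7.33 FPKM in CON and at 8.46, 8.15, 8.19, 7.03 and 7.74 FPKM in HG. Again HG replicates 1 to 3 exceeded all CON libraries, and HG replicate 4 lay below them. Its log2 fold change was 0.12 (95% interval -0.01 to 0.24, limma adjusted p = 0.139), and 0.16 without HG replicate 4, where it passed the threshold (adjusted p = 0.0350).

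Among 8 VEGF ligands and co-receptors, with the receptor gene Flt4 counted among them, 4 were called higher and 1 lower. After either median-of-ratios scaling or quantile normalization it was 1 and 1. The higher gene was Flt4 with median-of-ratios factors (limma adjusted p = 0.0486) and Nrp1 after quantile normalization (0.0303). The counts of this and later lists stand beside 28.4% of all genes tested called higher and 11.8% lower. Vegfb, a ligand of FLT1, fell from 54.3 ± 1.84 to 41.4 ± 2.54 FPKM (SD, n = 5 each; log2 fold change -0.39, limma adjusted p = 4.81e-05). Vegfa, the ligand of KDR and FLT1, was at 100.1 ± 13.0 and 100.6 ± 9.39 FPKM (log2 fold change 0.01, adjusted p = 0.933). Of the ligands, Vegfc, which acts on FLT4 and KDR, rose from 3.29 ± 0.280 to 4.07 ± 0.413 FPKM (0.30, adjusted p = 0.0150), and Pgf, another FLT1 ligand, from 1.19 ± 0.217 to 1.76 ± 0.379 FPKM (0.52, adjusted p = 0.0219). The calls of Vegfc, Pgf and the co-receptor Nrp1 (0.23, adjusted p = 0.00634) were lost with median-of-ratios factors, at adjusted p of 0.0828, 0.0610 and 0.0637. Pgf, with only 24 to 61 reads per library, also lost its call without CON replicate 3, HG replicate 2 or HG replicate 4 (adjusted p of 0.0527 to 0.0532).

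Of the 2 Tie receptors, Tie1 was called higher and Tek was not. Their 95% intervals overlapped (0.08 to 0.31 for Tie1), and neither was called with median-of-ratios factors. Tie1 (89806) was at 40.8, 37.3, 42.1, 41.4 and 38.5 FPKM in CON and at 47.5, 49.2, 47.3, 41.8 and 43.6 FPKM in HG. All HG libraries except replicate 4 exceeded every CON library. Its means were 40.0 ± 2.04 and 45.9 ± 3.05 FPKM (SD, n = 5 each), a log2 fold change of 0.20 (standard error 0.0516, limma adjusted p = 0.00970), and with median-of-ratios factors it was 0.11 (adjusted p = 0.151). Tek (89804), the receptor that binds angiopoietins, was at 19.9, 18.9, 20.7, 20.2 and 19.5 FPKM in CON and at 19.6, 20.7, 21.5, 18.5 and 21.3 FPKM in HG. The groups overlapped, with HG libraries on both sides of the CON range. Its log2 fold change was 0.04 (95% interval -0.07 to 0.14, limma adjusted p = 0.598), with the sign reversed to -0.06 by median-of-ratios factors and to -0.04 by quantile normalization.

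The ratio of Tie1 to Tek within a library was 2.02 ± 0.0392 for the CON libraries and 2.26 ± 0.151 for the HG libraries (SD, n = 5 each; two-sided exact permutation test, p = 0.0238). It is 1 of 3 ratios that were chosen after the values had been seen, and its p adjusted over the 3 was 0.0714. In HG the ratio exceeded every CON library in 4 of 5 libraries, and HG replicate 5 (2.04) lay within the CON range of 1.97 to 2.05. The ratio of Flt1 to Kdr was 0.260 ± 0.0132 and 0.269 ± 0.00801 (exact permutation test, p = 0.230, adjusted p = 0.345). The ratio of the TEK ligands Angpt2 to Angpt1 was 1.27 ± 0.388 and 1.12 ± 0.144 (exact permutation test, p = 0.579, adjusted p = 0.579).

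**Figure D3:**
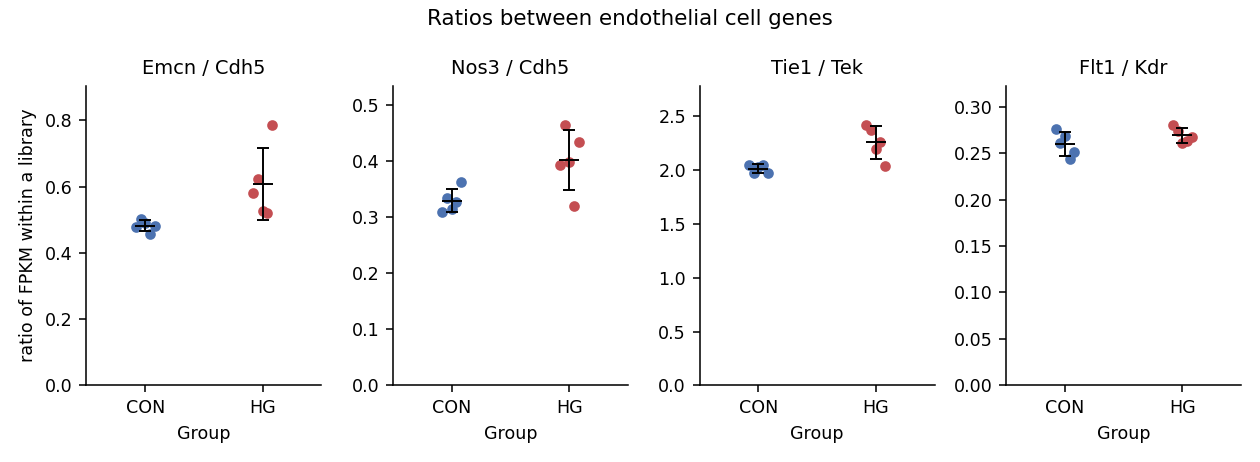
Ratios of FPKM within a library (y axes, from 0) by group (x axes), with 1 point per library and the group mean ± SD (n = 5 each). Emcn to Cdh5 is higher in all 5 HG libraries than in any CON library, Nos3 to Cdh5 and Tie1 to Tek in 4, and Flt1 to Kdr in 1.

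Among 5 tested partners of the Tie receptors, 1 was called higher and 1 lower, but 0 and 2 with median-of-ratios factors and 0 and 3 after quantile normalization. The lower gene was Angpt2, stored in Weibel-Palade bodies, at 2.70 ± 0.380 and 2.06 ± 0.342 FPKM (SD, n = 5 each; log2 fold change -0.38, limma adjusted p = 0.0242), whose call was lost without CON replicate 1 or HG replicate 1, 3 or 4 (adjusted p of 0.0517 to 0.0605). The higher gene was Dok2, an adaptor that binds TEK, at 0.517 ± 0.0761 and 0.765 ± 0.192 FPKM (log2 fold change 0.47, adjusted p = 0.0307). Its call was lost without CON replicate 1, 2, 3 or 4 or HG replicate 5 (0.0522 to 0.0655) and with median-of-ratios factors (0.0640). Angpt1, made by cells around the vessel, was at 2.22 ± 0.409 and 1.84 ± 0.198 FPKM (adjusted p = 0.139). Ptprb, the phosphatase VE-PTP that acts on TEK and VE-cadherin, was at 6.58 ± 0.180 and 5.87 ± 0.476 FPKM (log2 fold change -0.17, adjusted p = 0.0513), and passed the threshold with median-of-ratios factors (-0.25, adjusted p = 0.00493) and without HG replicate 3 (-0.20, 0.0270).

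Eng, the most abundant of the 10 genes, had a higher mean in HG but did not pass the test. Eng (497010) was at 87.5, 77.3, 98.4, 89.5 and 87.3 FPKM in CON and at 112.4, 109.2, 96.3, 91.8 and 84.9 FPKM in HG. HG replicates 1 and 2 exceeded every CON library and the other 3 lay inside the CON range. The log2 fold change was 0.16 (95% interval -0.01 to 0.34, limma adjusted p = 0.121), and 0.22 without HG replicate 5, where it passed the threshold (adjusted p = 0.0388).

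Among 10 tested ligands, partners and targets of endoglin, 6 were called higher and 2 lower. With median-of-ratios factors or after quantile normalization it was 3 and 2. The ligand Bmp10, which is made by cardiomyocytes, rose from 15.8 ± 4.01 to 30.5 ± 3.06 FPKM (SD, n = 5 each; log2 fold change 0.98, limma adjusted p = 0.000298). Its receptor Acvrl1 (ALK1), to which endoglin presents it, fell from 9.78 ± 0.559 to 7.38 ± 0.573 FPKM (-0.40, adjusted p = 0.000368). In both genes the groups did not overlap. The targets Id1 and Id3, which are induced by BMP signalling in many cell types, were called higher. Id3 went from 65.9 ± 4.86 to 84.0 ± 10.5 FPKM (0.34, adjusted p = 0.00520) and Id1 from 20.7 ± 2.42 to 25.4 ± 3.43 FPKM (0.29, adjusted p = 0.0319). Their calls under the other scalings are not given here, and a link to the difference of Bmp10 was not tested. Tgfbr2 was the other gene called lower. Id1, Id3 and Tgfbr2 were named after their values were seen.

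Nos3 (24600) was at 22.2, 22.3, 23.3, 24.8 and 24.8 FPKM in CON and at 28.9, 32.2, 29.1, 23.2 and 26.5 FPKM in HG. All HG libraries except replicate 4 exceeded every CON library, and replicate 2 was the highest. Its means were 23.5 ± 1.30 and 28.0 ± 3.34 FPKM (SD, n = 5 each), a log2 fold change of 0.25 (standard error 0.0755, limma adjusted p = 0.0204). The call was lost with median-of-ratios factors (0.16, adjusted p = 0.126) and after quantile normalization (adjusted p = 0.0674), and held in each of the 10 fits without 1 library. Of 14 tested genes of the nitric oxide pathway, 2 were called higher and 2 lower, against 1 and 2 with median-of-ratios factors and 3 and 2 after quantile normalization. Slc7a1, a transporter of arginine, the substrate of the enzyme, rose from 8.94 ± 0.567 to 10.8 ± 0.745 FPKM (0.27, adjusted p = 0.00383). Cav1, whose product caveolin-1 binds and restrains the enzyme, fell from 114.5 ± 10.6 to 82.7 ± 6.38 FPKM (-0.47, adjusted p = 0.000203).

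Vwf was the most variable of the 10 genes, with a coefficient of variation of 12.3% in CON and 22.2% in HG. Vwf (116669) was at 8.46, 6.90, 9.80, 8.36 and 8.70 FPKM in CON and at 7.17, 9.95, 8.84, 6.12 and 6.15 FPKM in HG. HG replicate 2 was the highest library of all, and HG replicates 4 and 5 were the lowest. The log2 fold change was -0.16 (95% interval -0.45 to 0.13, limma adjusted p = 0.376). Of 9 genes of Weibel-Palade bodies and VWF partners, 3 were called higher and 1 lower, but 1 and 2 with median-of-ratios factors and 1 and 1 after quantile normalization. Rab27a, a GTPase on these bodies, rose from 7.27 ± 0.657 to 9.75 ± 1.36 FPKM (0.41, adjusted p = 0.00408). Mmrn1, which encodes multimerin-1, a protein of platelets and endothelium, fell from 1.501 ± 0.722 to 0.464 ± 0.180 FPKM (-1.45, adjusted p = 0.00255). Mmrn1 had 21 to 230 reads per library.

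Most of the 10 genes, Cdh5 and Emcn less so, varied together from library to library within a group. After each group mean was subtracted, 41 of 45 pairs of genes correlated positively over the 10 libraries, with a median Pearson r of 0.52 (a description, since the points share library and scaling). Over all pairs of the 11709 genes whose mean reached 1 FPKM, 50.9% were positive and the median r was 0.009. The median r was 0.13 over the 9 pairs with Cdh5, of which 6 were positive, and 0.22 over the 9 pairs with Emcn, of which 7 were positive. The highest r was 0.85 for Tie1 and Vwf and the lowest -0.48 for Cdh5 and Emcn. HG replicate 4 had 1 of the 10 genes above the HG mean and HG replicate 2 had 9, while CON replicate 2 had 0 above the CON mean and CON replicate 3 had 9. Of 11699 other genes whose mean reached 1 FPKM, those most like the mean of the 10 standardised residuals were Galnt2 (r = 0.973), Adgra2 (0.954), Pxdn (0.949), Fam174a (0.936) and Pink1 (0.922). Adgra2 encodes GPR124, a receptor on brain endothelium, and Pxdn the extracellular peroxidase peroxidasin. Likeness within groups did not go with 1 difference between them. Galnt2 (log2 fold change 0.23, limma adjusted p = 0.00257), Adgra2 (0.30, 0.00445) and Pxdn (0.30, 0.000924) were higher in HG. Fam174a was at -0.01 (0.947) and Pink1 was lower (-0.996, 5.30e-07).

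Lists of genes of endothelial subtypes gave other counts than the 10 general markers: capillary genes were mostly lower in HG, and endocardial genes mostly higher. The lists were chosen with earlier results of these data known, so this contrast is a description. The difference between lists was not tested. Over all genes tested, 28.4% were called higher and 11.8% lower. Of 8 tested genes of capillary endothelium, 0 were called higher and 6 lower (Fabp4, Lpl, Gpihbp1, Aplnr, Rgcc and Meox2). The median log2 fold change of the list was -0.72, and the counts were the same under each scaling. Gpihbp1, which holds lipoprotein lipase on the capillary wall, fell from 3.59 ± 0.353 to 1.18 ± 0.333 FPKM (SD, n = 5 each, log2 fold change -1.55, limma adjusted p = 1.83e-05). It had 34 to 155 reads per library. Lpl, the lipase itself, which cardiomyocytes make, fell from 43.1 ± 2.55 to 21.7 ± 1.06 FPKM (-0.98, adjusted p = 2.00e-07). Aplnr, the apelin receptor, fell from 12.6 ± 1.84 to 7.48 ± 1.33 FPKM (-0.75, adjusted p = 0.000678), while its ligand Apln was at 3.64 ± 0.153 and 3.19 ± 0.677 FPKM (-0.21, adjusted p = 0.186; 0.0387 without HG replicate 5). Summed over the 8 genes, with Lpl among them, CON libraries held 247.4 to 273.2 FPKM and HG libraries 139.5 to 182.4 FPKM.

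Of 6 genes of the endocardium, the endothelium of the chambers, 5 were called higher (Npr3, Nfatc1, Hapln1, Adgrg6 and Tmem108) and 1 lower (Cytl1), with the same counts under each scaling. Hapln1, a linker of hyaluronan matrix, rose from 5.49 ± 0.610 to 11.2 ± 2.29 FPKM (SD, n = 5 each; log2 fold change 0.99, limma adjusted p = 0.000127), and Npr3, the natriuretic peptide clearance receptor, from 15.5 ± 1.09 to 22.4 ± 2.89 FPKM (0.52, adjusted p = 0.000442). Of 10 arterial genes, 5 were called higher (Dll4, Hey1, Cxcr4, Unc5b and Bmx) and 0 lower under each scaling. The Notch ligand Dll4 rose from 6.73 ± 0.539 to 8.70 ± 0.613 FPKM (0.37, adjusted p = 0.00112), and the Notch target Hey1 from 3.22 ± 0.355 to 4.76 ± 0.608 FPKM (0.55, adjusted p = 0.00109). Of 5 venous genes 2 were higher and 1 lower, and 1 and 1 under either rescaling, among them Nr2f2 (0.30, adjusted p = 0.00496) and Ephb4 (0.19, adjusted p = 0.0124; 0.201 with median-of-ratios factors). Of 6 lymphatic genes 2 were higher and 1 lower, but 2 and 3 with median-of-ratios factors and 1 and 3 after quantile normalization. Pdpn was at 0.47 (adjusted p = 7.37e-05) and Flt4, the VEGF-C receptor, at 0.31 (adjusted p = 0.00801), while the chemokine gene Ccl21, named after its values were seen, was at -1.34 (adjusted p = 0.01003) and the list's median at -0.03. Of 11 genes of sprouting tip cells 4 were higher and 2 lower, but 3 and 4 with median-of-ratios factors and 3 and 2 after quantile normalization, and the list's median was -0.08. Esm1 rose from 0.638 ± 0.227 to 1.53 ± 0.309 FPKM (1.17, adjusted p = 0.00100), on only 14 to 70 reads per library. Angpt2 and Lama4 were those called lower (-0.38 and -0.08).

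**Figure D4:**
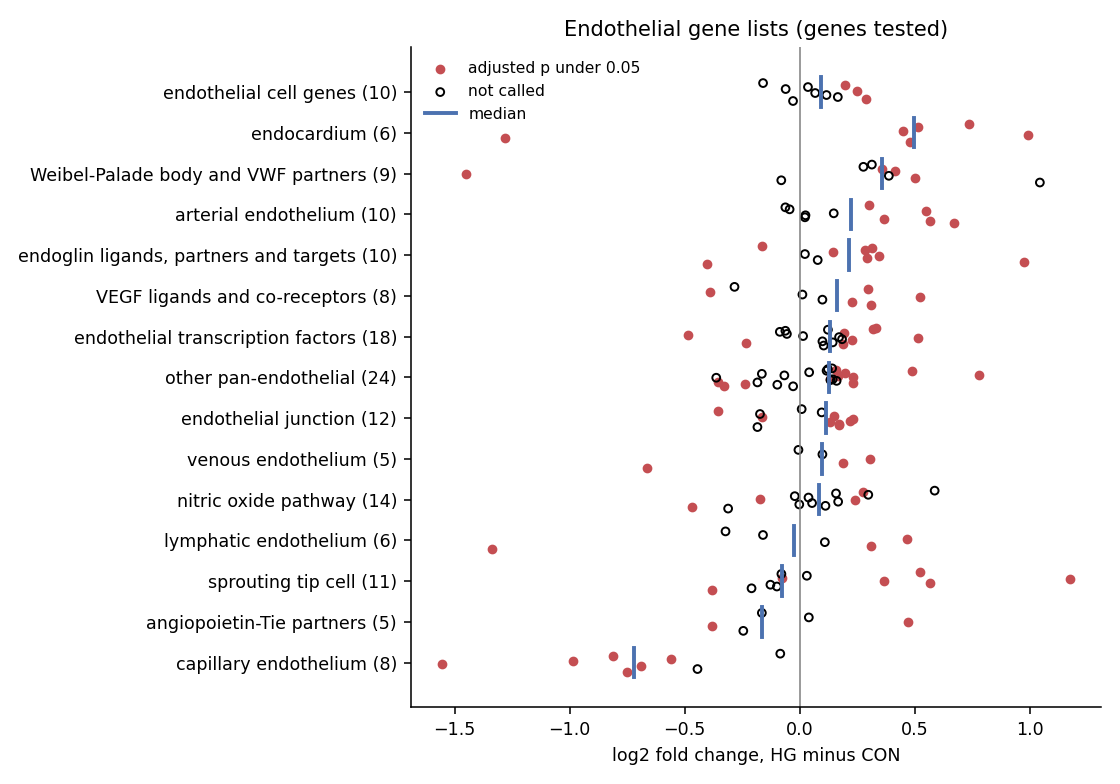
Each point is the log2 fold change HG minus CON (x axis) of 1 gene of the list on the y axis, with the number tested in brackets, red where the limma adjusted p was under 0.05 and open where not, and the blue bar gives the list's median. The 10 endothelial cell genes lie between -0.16 and 0.29 with a median of 0.09, the capillary list has its median at -0.72 and the endocardial list at 0.50.

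Among 24 other pan-endothelial genes, 8 were called higher and 3 lower, but 3 and 6 with median-of-ratios factors and 4 and 5 after quantile normalization. Over all 14542 genes tested, 28.4% were called higher and 11.8% lower. With median-of-ratios factors the counts over all genes were 2271 and 2551, and after quantile normalization 2615 and 2317. How far the lists of this paragraph depart from all genes was not tested. S1pr1, a sphingosine-1-phosphate receptor, rose from 17.7 ± 1.43 to 24.9 ± 2.52 FPKM (SD, n = 5 each; log2 fold change 0.49, limma adjusted p = 0.000311), and Aqp1, a water channel also of red cells, fell from 136.1 ± 5.75 to 108.5 ± 10.1 FPKM (-0.33, adjusted p = 0.000963). The tight junction gene Cldn5 was at 16.8 ± 1.02 and 14.9 ± 2.30 FPKM (-0.18, adjusted p = 0.141; 0.0477 with median-of-ratios factors). Of 12 junction genes 6 were higher and 2 lower, but 0 and 4 with median-of-ratios factors and 3 and 2 after quantile normalization. Ctnnd1, the catenin p120 that binds cadherins, was at 0.17 (adjusted p = 0.000661) and Pcdh12, a protocadherin, at -0.35 (adjusted p = 0.00210). The call of Ctnnd1 was lost with median-of-ratios factors (0.0709) and held after quantile normalization (0.00199). Of 18 endothelial transcription factor genes 6 were higher and 2 lower, against 1 and 2 with median-of-ratios factors and 2 and 2 after quantile normalization. Klf2, a factor induced by shear stress that raises Nos3 transcription, fell from 32.6 ± 4.79 to 23.3 ± 4.33 FPKM (-0.49, adjusted p = 0.0102), whereas Klf4 was at -0.06 (adjusted p = 0.674) and Erg at 0.14 (adjusted p = 0.0709). Sox7 was at 0.32 (adjusted p = 0.00430) and Elk3 at 0.19 (adjusted p = 0.00524). The call of Elk3 was lost with median-of-ratios factors (0.123) and held after quantile normalization (0.0495).

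Some markers of the other cells of the heart were also called higher or lower, and their part in the results above was not tested. These counts stand beside 28.4% of all genes tested called higher and 11.8% lower, and how far they depart was not tested. Cardiomyocyte genes were 1 higher and 8 lower with median-of-ratios factors, and 1 and 5 after quantile normalization. Fibroblast genes were 2 and 6, then 2 and 3, and erythroid genes 0 and 7 under either. The sums below were not rescaled. Of 10 cardiomyocyte genes 1 was called higher and 7 lower, and their summed level was 27573 to 29098 FPKM in CON and 23618 to 27484 FPKM in HG. Of 8 smooth muscle and pericyte genes 3 were higher and 2 lower (sums of 789.4 to 910.7 and 995.6 to 1250 FPKM). Of 8 fibroblast genes 2 were higher and 4 lower (1724 to 2010 and 1556 to 1785 FPKM), and of 8 macrophage genes 3 and 1 (38.6 to 50.4 and 46.8 to 59.1 FPKM). Of 8 erythroid genes 0 were higher and 5 lower (62.6 to 113.5 and 41.6 to 59.8 FPKM), of 7 megakaryocyte and platelet genes, a cell type that also makes VWF and PECAM-1, 0 and 0 (15.0 to 21.8 and 12.2 to 20.9 FPKM), and of 6 epicardial genes 2 and 0 (31.3 to 37.0 and 37.7 to 44.2 FPKM). No marker of these lists was at 0 in all libraries. Summed over the 10 endothelial cell genes, CON libraries held 361.3 to 409.3 FPKM and HG libraries 384.8 to 438.9 FPKM, and the groups overlapped.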

How the data were processed

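Stranded mRNA libraries of 5 CON and 5 HG fetal hearts were analysed. The authors deposited 1 table of FPKM for the 10 libraries, with gene annotation. The submitters' processing notes name fastp, HISAT2, HTSeq, R 3.2.0 and the build mRatBN7.2, with no role or order. The Methods speak of pooled RNA of the samples, whereas deposited values differ between libraries. The study's texts speak of heart tissue and, in a legend, of isolated cardiomyocytes, and the labels of heart tissue. The members and gene lists were chosen with earlier results of these data known. Libraries were grouped by their labels. FPKM steps gave whole reads for 100% of 18025 genes (tolerance 0.02 reads). Depth is these reads.

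The 14542 genes whose mean reached 0.1 FPKM were tested with limma 3.58.1 (R 4.3.3) with a trend on log2(FPKM + 0.1), without covariates, and adjusted by Benjamini-Hochberg. Fold changes are on this scale. Relative differences used the same fit after the value of Cdh5 in that library was subtracted. Ratios were compared by two-sided exact permutation tests in Python 3.11.15 (smallest p 0.00794). In data simulated for CON against HG, the fit on 14542 genes recovered 95% of 100 genes at an absolute log2 fold change of 0.5 and 99% of 100 at 1. It also called 10 unchanged genes. Differences as small as those of the members, at most 0.29, were not simulated, so the recovery does not speak to the members that were not called.

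Named genes were all members, the 2 called genes with the smallest adjusted p of each endothelial list, 12 fixed genes and the 5 genes most like the members. Names of all called genes of the capillary, arterial and endocardial lists, Id1, Id3, Tgfbr2, Ccl21 and Lama4 lie outside this rule. They were added after their values were seen. As alternatives, the pseudocount was set to 1 or 0.01, the filter was dropped or raised to 1 FPKM, libraries were scaled by median-of-ratios factors, by quantiles or without 10 hemoglobin genes, the trend was dropped, libraries were weighted, a replicate block was fitted, single libraries were left out, and voom was run on the recovered reads. Promoters were read from RefSeq (GRCr8).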

Additional observations from a re-analysis of the deposited data

Results flagged for a closer look

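Dok2, the adaptor of TEK, stood apart in 1 library of each group by Dixon's test. CON replicate 5 was at 0.648 FPKM with the other CON libraries between 0.463 and 0.514 FPKM, and HG replicate 5 was at 1.11 FPKM with the others between 0.644 and 0.700 FPKM. Of 96 groups of 5 libraries examined over 48 named genes, these 2 were flagged, and chance flags about 1 in 20 groups.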

How the results depend on the processing

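Over the 21 alternatives the number of members called higher was 3, except for 2 after quantile normalization and with the replicate block, 4 without HG replicate 4 (Flt1 added) or HG replicate 5 (Eng added), and 1 with median-of-ratios factors, where also 1 member was called lower. Relative to Cdh5 it was 1 without the trend (Tie1), 3 with the replicate block, and 1 to 4 over the fits without 1 library (1 without CON replicate 4 or HG replicate 2). Replicate numbers were not found to pair the libraries: deviations of same-numbered libraries correlated from -0.126 to 0.108, and for none of the 5 numbers was the correlation highest with its own. With the block Nos3 reached an adjusted p of 0.0519. With median-of-ratios factors the log2 fold change of Kdr turned to -0.024 and that of Tek to -0.055, and after quantile normalization Tek was at -0.041. Over the fits without 1 library, Cdh5 was at -0.053 to 0.017 (the highest without HG replicate 5). Relative to Cdh5, Pecam1 was at -0.073 to 0.0011 (the highest without HG replicate 4) and Tek at -0.00016 to 0.112 (the lowest without HG replicate 5). The log2 ratio of Angpt2 to Angpt1, at -0.14, was at -0.245 to 0.020 (the highest without CON replicate 1). The ratio of Tie1 to Tek was chosen after the values were seen, with a permutation p of 0.0714 after adjustment over 3 ratios. Its unadjusted p was 0.00794 to 0.0317 (exact permutation tests) over the fits without 1 library. The cause of these changes was not tested. The lowest count of a member in a library was 812 reads (Emcn), so that counting error is part of the spread between libraries.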
